A study of Mus musculus with 8 samples.

Results

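Genes of mast cells and basophils were followed in haematopoietic stem and progenitor cells of 4 wild type mice and 4 mice heterozygous for JAK2V617F. The genes were chosen by name. Of the 10, 8 were matched to a singly named probe set among the 18193 genes measured. They were Fcer1a, Ms4a2, Cpa3, Tpsb2, Cma1, Mcpt8, Hdc and Slc18a2. Prss34 and Il1rl1 were not matched and are not analysed here. All mice were C57BL/6, and the cells were taken by flow cytometry as low in lineage markers, positive for Sca1 and high in cKit (LSK cells). JAK2V617F is a mutation of the cytokine receptor kinase Jak2 that keeps it active without ligand, and the series concerned its expression at a physiological level. The labels give neither the construct or Cre line behind the allele nor the age and sex of the mice. The labels give 4 mice a genotype with 1 array each. Values are log2 intensities, and every difference is mutant minus wild type.

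Mast cells and basophils are granule-bearing cells that act in allergic responses. Both carry the high-affinity receptor for IgE, built from an alpha chain that binds the antibody (Fcer1a), a beta chain that amplifies the signal (Ms4a2) and a gamma chain shared with other receptors (Fcer1g). Crosslinking of this receptor empties granules that hold histamine, made from histidine by the decarboxylase Hdc and loaded by the vesicular monoamine transporter Slc18a2, together with proteases such as carboxypeptidase A3 (Cpa3), tryptase (Tpsb2), chymase (Cma1) and, in mouse basophils, Mcpt8. Both lineages arise from bone marrow progenitors that need Gata2, and mast cells keep Kit, 1 of the markers of the LSK gate, on their surface for life.

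Arrays were alike in overall intensity, with medians between 7.06 and 7.15 and correlations over probe sets between 0.991 and 0.995. They differed in the transcripts of the sex chromosomes. Xist, the RNA that silences an X chromosome in female cells, read 13.21 to 13.46 in 3 arrays (wild type 1, wild type 2 and mutant 3) and 5.54 to 6.54 in the 5 others, and Y-linked Eif2s3y, Kdm5d and Uty read 3.06 to 5.37 in those 3 arrays. Arrays with Xist signal were thus 2 of 4 in wild type and 1 of 4 in mutant mice. These readings also show what absent sex-linked transcripts give on these arrays, from 3.06 to 6.54 depending on the probe set. This range is meant below by the readings or level of absent transcripts. Among 26 genes of other organs, such as Alb and Gfap, 22 had a mean below 6.54. Apoa1 (7.23), Krt5 (7.25), Prm1 (8.34) and Cela1 (11.09) had higher means. Whether those are background was not tested, so 6.54 is not a limit of detection. Kit, 1 of the gate's markers, was at 12.64 ± 0.14 in wild type and 12.67 ± 0.10 in mutant cells (SD, n = 4 each), while Ly6a, which encodes Sca1, was not matched. Of 8 measured genes of stem and progenitor identity none was called; Cd34 (-0.12) and Mecom (-0.34) lay lower without overlap and Slamf1 was at 0.72 (limma adjusted p = 0.225). Jak2 itself differed by -0.20 (limma adjusted p = 0.294).

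Sequences before the annotated starts of 5 members are shown because the results below turn on these genes. They are Cpa3, the member whose genotypes did not overlap, Mcpt8 and Ms4a2, which lay higher in mutant cells without separating them, and Fcer1a and Cma1, which followed another division of the arrays. Each holds the 250 bases before the start in RefSeq (GRCm38.p6), all on the minus strand and written 5′ to 3′ along the gene, at chr3:20242182-20242431, chr14:56085198-56085447, chr19:11623720-11623969, chr1:173227230-173227479 and chr14:55944676-55944925 in this order. Capitals mark matches on either strand to the hexamers bound by Gata factors, AGATAA or TGATAA, or either of them with G as the last base.
Cpa3: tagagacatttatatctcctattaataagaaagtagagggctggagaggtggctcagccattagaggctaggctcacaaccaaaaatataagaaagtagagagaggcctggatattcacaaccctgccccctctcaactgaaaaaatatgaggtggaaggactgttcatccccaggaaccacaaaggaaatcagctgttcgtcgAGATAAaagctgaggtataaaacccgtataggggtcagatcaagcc
Mcpt8: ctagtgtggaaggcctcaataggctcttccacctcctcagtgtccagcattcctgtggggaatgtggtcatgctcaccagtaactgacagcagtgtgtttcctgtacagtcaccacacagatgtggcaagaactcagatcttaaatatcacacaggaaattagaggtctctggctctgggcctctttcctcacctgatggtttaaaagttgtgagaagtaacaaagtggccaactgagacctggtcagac
Ms4a2: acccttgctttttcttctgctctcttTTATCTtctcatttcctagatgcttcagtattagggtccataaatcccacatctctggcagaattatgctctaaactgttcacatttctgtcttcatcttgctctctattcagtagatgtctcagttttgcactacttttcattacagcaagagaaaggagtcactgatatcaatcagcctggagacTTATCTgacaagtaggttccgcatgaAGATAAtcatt
Fcer1a: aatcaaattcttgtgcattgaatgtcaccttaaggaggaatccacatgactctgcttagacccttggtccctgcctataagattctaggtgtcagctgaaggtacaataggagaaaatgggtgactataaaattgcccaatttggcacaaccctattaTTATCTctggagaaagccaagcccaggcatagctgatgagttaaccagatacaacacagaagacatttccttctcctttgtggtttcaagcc
Cma1: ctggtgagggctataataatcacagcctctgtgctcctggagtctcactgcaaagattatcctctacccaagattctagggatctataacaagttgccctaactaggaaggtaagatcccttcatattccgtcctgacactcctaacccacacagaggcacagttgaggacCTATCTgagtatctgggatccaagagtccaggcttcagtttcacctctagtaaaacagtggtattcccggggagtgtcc

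A Gata hexamer was found before a start of 8 of the 9 members that had a promoter entry, and in 26.5% of all 32851 promoter entries over the same 250 bases. In Cpa3 the match began 46 bases before the start and was followed by a TATAAA box beginning 31 bases before it (12.4% of all entries held TATAAA). Ms4a2 held 3 matches, beginning 224, 37 and 11 bases before the start, and Fcer1a and Cma1 held 1 each, at 92 and 79 bases. Slc18a2 held 2 and Hdc 1. Mcpt8 held none. It held 2 matches to TGTGGT, the core read by Runx factors, and Cpa3, Fcer1a and 1 entry of Il1rl1 held 1 each. This core occurred in 14% of all entries. The Stat motif TTCNNNGAA, present in 7.02% of entries, was found before a start of 0 of the 9. Of the E-box variants read by Mitf, CACGTG and CATGTG (17.6% of entries), Fcer1a and Prss34 held 1 each. No match named overlapped one of another set, matches were sought on both strands, and a match describes these letters in this window alone.

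**Figure D1:**
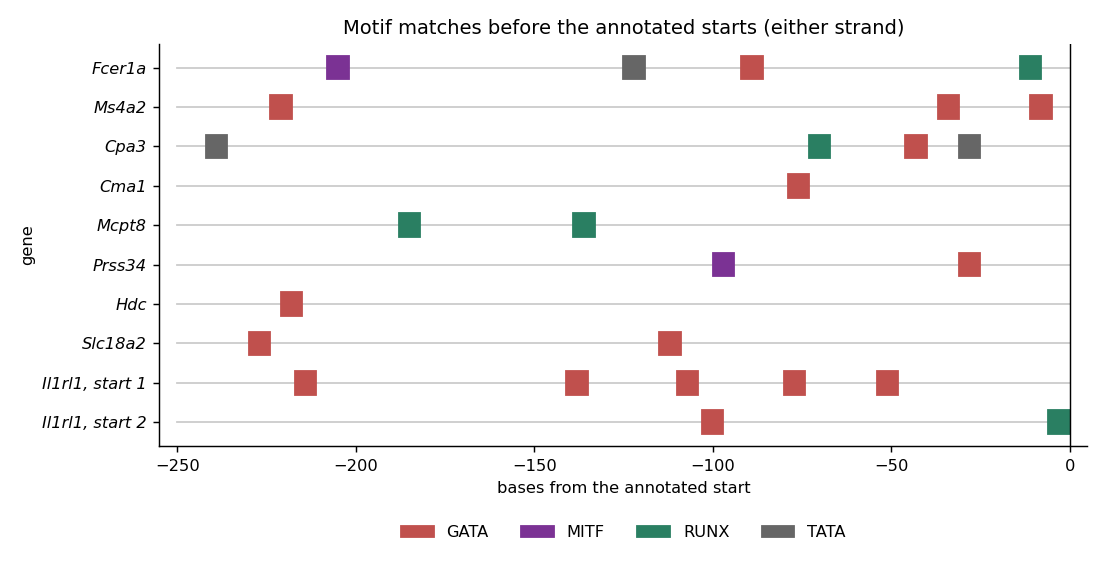
Matches to 4 motif sets in the 250 bases before each annotated start (horizontal axis: bases from the start; 1 line per promoter entry, with 2 for Il1rl1). Red blocks (GATA hexamers) appear on every line except that of Mcpt8, and the Stat motif, which had no match, is not drawn.

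Taken over the genotypes, no member passed limma's adjusted threshold of 0.05, which 0.165% of all genes did. Of the 8, 6 lay higher in mutant cells and 2 lower (75% higher, beside 62.6% of all genes), with a median difference of 0.23 against 0.05 over all genes. Omitting wild type array 4 turned this median to -0.02, and omitting mutant array 3 to -0.03. Before adjustment, 3 members had a limma p under 0.05 and were higher, Cpa3, Mcpt8 and Ms4a2, and 0 were lower, beside 11.9% of all genes higher and 5.23% lower. The mutant arrays lay above all wild type arrays for 1 member, Cpa3, and below for 0, beside 6.82% and 3.33% of all genes. In RNA of a sorted population, a different share of cells of a type and a different amount of RNA per cell cannot be told apart.

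**Figure D2:**
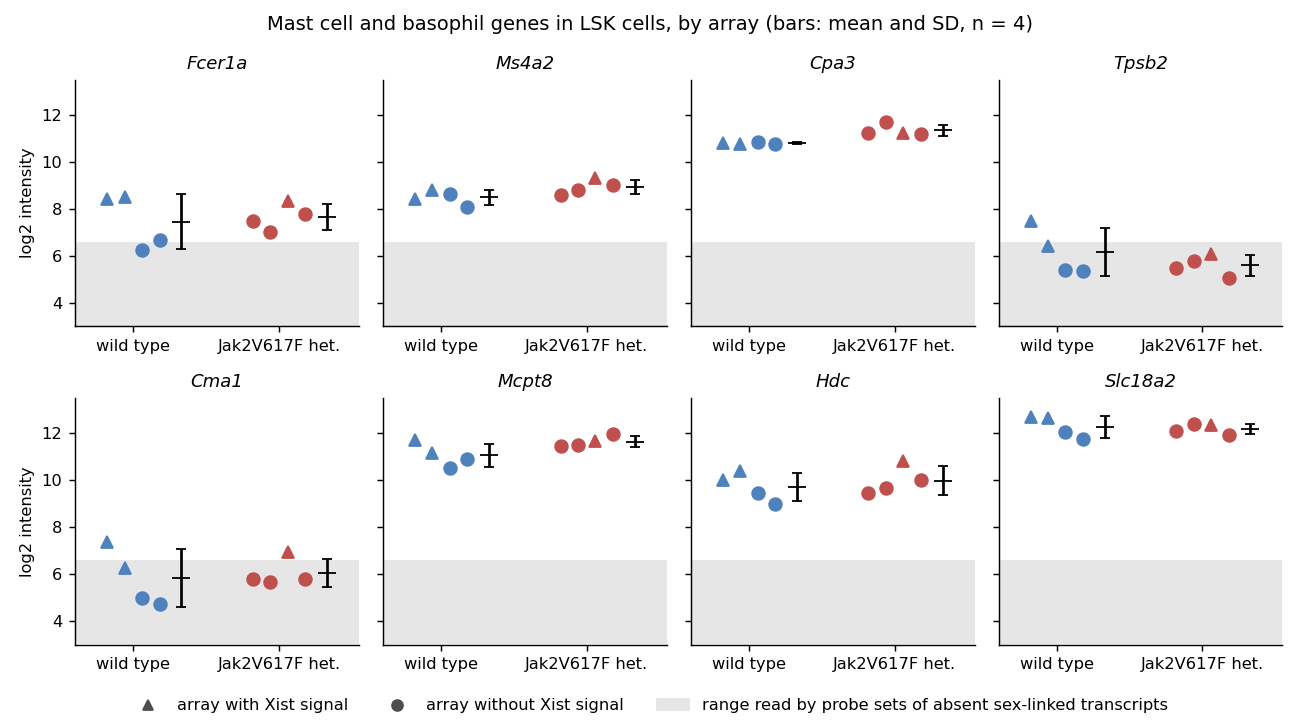
Log2 intensity of the 8 measured genes in each array (points; triangles mark the 3 arrays with Xist signal), with mean and SD per genotype. Only the genotypes of Cpa3 do not overlap, and in Fcer1a, Tpsb2, Cma1 and Hdc the triangles lie above all circles; the grey band spans 3.06 to 6.54, the readings of absent sex-linked transcripts.

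Among the receptor chains, the alpha chain gene Fcer1a read 8.43, 8.48, 6.23 and 6.68 in wild type arrays 1 to 4 and 7.47, 7.0, 8.33 and 7.78 in mutant arrays 1 to 4. The wild type arrays thus fell into a high and a low pair that enclosed all mutant arrays. The difference of 0.19 ± 0.53 (SE) was smaller than the spread within wild type (SD 1.17; limma adjusted p = 0.869). Leaving out single arrays turned it to -0.22 (wild type 3), -0.07 (wild type 4) or -0.04 (mutant 3). The beta chain gene Ms4a2 read 8.41, 8.82, 8.62 and 8.09 in wild type and 8.60, 8.78, 9.29 and 9.03 in mutant arrays. Mutant arrays 3 and 4 exceeded every wild type array and the other 2 lay among them. The difference was 0.44 ± 0.18 (SE; limma adjusted p = 0.272), and a further, dim probe set of Ms4a2 (5.37 to 6.18) differed by 0.12. The gamma chain gene Fcer1g, abundant in myeloid cells at large, was level at 11.77 ± 0.07 and 11.82 ± 0.23 (SD, n = 4 each).

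Cpa3, the zinc carboxypeptidase stored in mast cell granules with heparin, read 10.80, 10.75, 10.84 and 10.75 in wild type and 11.25, 11.68, 11.25 and 11.17 in mutant arrays. The lowest mutant array stood above the highest wild type array, and the wild type arrays spanned only 10.75 to 10.84. Its mean was 10.79 ± 0.04 in wild type and 11.34 ± 0.23 in mutant cells (SD, n = 4 each), a difference of 0.55 ± 0.11 (SE) or 1.47-fold, with a limma adjusted p of 0.0909 and an unadjusted p of 0.00074. The gene did not pass the threshold in any of the 17 alternatives that refitted the genes, in which the difference ranged from 0.44 to 0.61 and the adjusted p from 0.0523 to 0.207.

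Mcpt8, the granzyme-like serine protease that marks mouse basophils, read 11.70, 11.15, 10.54 and 10.90 in wild type and 11.48, 11.51, 11.66 and 11.97 in mutant arrays. Wild type array 1 lay within the mutant arrays and the other 3 below them. The means were 11.07 ± 0.49 and 11.65 ± 0.22 (SD, n = 4 each), with a difference of 0.58 ± 0.23 (SE; limma adjusted p = 0.25). Without wild type array 3 the difference was 0.40.

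The mast cell chymase gene Cma1 and tryptase gene Tpsb2 were dim. Cma1 read 7.39, 6.27, 4.97 and 4.71 in wild type and 5.79, 5.65, 6.93 and 5.79 in mutant arrays. Only wild type array 1 and mutant array 3 exceeded 6.54, the highest reading of an absent sex-linked transcript. Tpsb2 read 7.49, 6.43, 5.37 and 5.34 in wild type and 5.47, 5.76, 6.05 and 5.05 in mutant arrays, and only wild type array 1 exceeded that level. Neither differed between genotypes beyond its spread, with 0.21 ± 0.56 for Cma1 (limma adjusted p = 0.867) and -0.58 ± 0.45 (SE) for Tpsb2 (limma adjusted p = 0.523). For Tpsb2 it was -0.13 with wild type array 1 left out. The same omissions as for Fcer1a turned Cma1 to -0.08 (wild type 3), -0.17 (wild type 4) or -0.09 (mutant 3). A second probe set of Tpsb2 was near background throughout (4.44 to 5.13) and differed by 0.11. Both genes belong to families of similar proteases, and whether their probe sets read relatives was not tested.

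Mcpt8 and Cma1 stand in the chymase locus of chromosome 14, a run of 15 coding genes from Cma1 to Gzmb in RefSeq (GRCm38.p6). Its mast cell protease genes Mcpt1, Mcpt2 and Mcpt4 had means of 3.57, 4.16 and 4.11, within the readings of absent transcripts. Cma2 and Mcpt9, also in the locus, were not matched and have no values here. Ctsg, which encodes the cathepsin of neutrophil granules and lies next to Mcpt8, was at 14.01 in wild type and 14.25 in mutant cells. Gzmb, at the far end, was at 6.92 and 7.18, and Gzmc, Gzmd, Gzme, Gzmf, Gzmg and Gzmn had means from 3.20 to 4.28. Within the locus, Mcpt8 and Ctsg thus read above 6.54 in all 8 arrays, Gzmb in all but wild type array 4 (6.43) and Cma1 in 2 arrays.

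The genes of histamine were well measured. Hdc, which makes histamine, read 10.02, 10.39, 9.47 and 9.01 in wild type and 9.44, 9.66, 10.83 and 10 in mutant arrays. The genotypes overlapped over most of their range, and the difference was 0.26 ± 0.36 (SE; limma adjusted p = 0.718), or -0.02 without mutant array 3. Its second probe set followed the first over the arrays (Pearson r = 0.97) and differed by 0.11. Slc18a2, which carries histamine and other amines into vesicles, read 12.70, 12.64, 12.04 and 11.76 in wild type and 12.11, 12.39, 12.34 and 11.92 in mutant arrays. The mutant arrays lay inside the wild type range, with a difference of -0.09 ± 0.21 (SE; limma adjusted p = 0.839), which omission of wild type array 1 turned to 0.04 and of wild type array 2 to 0.02.

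Several members followed the Xist division of the arrays rather than the genotype. All 3 arrays with Xist signal lay above the 5 others for Fcer1a (8.33 to 8.48 against 6.23 to 7.78), Hdc (10.02 to 10.83 against 9.01 to 10), Cma1 (6.27 to 7.39 against 4.71 to 5.79) and Tpsb2 (6.05 to 7.49 against 5.05 to 5.76). These were 4 of the 8 members, beside 1.93% of all genes, and 0 members lay lower in all 3. The division was seen in the values and was not in the labels, so it is given as a description. Cpa3 did not follow it, with 10.75 to 11.25 in the arrays with Xist signal and 10.75 to 11.68 in the others. Averaged over the 8 members, the log2 level was 9.37 to 9.62 in the 3 arrays and 8.41 to 9.09 in the others, while by genotype it was 8.41 to 9.62 in wild type and 8.95 to 9.59 in mutant arrays.

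With sex, read from Xist and Y-linked genes, as a term in the fit, 7 of the 8 members lay higher in mutant cells. So did 11445 of the 18193 genes. The median difference was 0.53 over the members and 0.06 over all genes. No member passed the adjusted threshold, which 0.33% of all genes did (60 genes), and 5 had an unadjusted limma p under 0.05 and were higher, beside 12.5% of all genes. These were Cpa3 at 0.54 ± 0.12, Mcpt8 at 0.68 ± 0.20, Ms4a2 at 0.53 ± 0.16, Hdc at 0.52 ± 0.16 and Cma1 at 0.62 ± 0.25 (SE). Fcer1a was at 0.58 ± 0.25 (limma adjusted p = 0.279).

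Among the 5 arrays without Xist signal, 2 wild type and 3 mutant, all 8 differences were above 0. So were those of 11133 of the 18193 genes. The median difference was 0.52 over the members and 0.06 over all genes. Fcer1a differed by 0.97 ± 0.25, Mcpt8 by 0.93 ± 0.19, Cma1 by 0.90 ± 0.12 and Cpa3 by 0.57 ± 0.17 (SE). These 4 had an unadjusted limma p under 0.05, beside 11.4% of all genes higher in mutant cells, and 0 passed the adjusted threshold, which 0.121% of all genes did (smallest limma adjusted p = 0.0819, for Cma1). For Cma1 this difference lies at the level of absent transcripts, 4.71 and 4.97 against 5.65 to 5.79. For Fcer1a it lies between 6.23 and 6.68 in wild type and 7.0 to 7.78 in mutant arrays, and the lower wild type value is below 6.54. Among arrays with Xist signal there were 2 wild type and 1 mutant, so no comparison within them was tested. Fcer1a was then 8.43 and 8.48 against 8.33, and Mcpt8 11.70 and 11.15 against 11.66. The mutant array also lay below both wild type arrays for Tpsb2 (7.49 and 6.43 against 6.05) and Slc18a2 (12.70 and 12.64 against 12.34). It lay above both for Cpa3, Ms4a2 and Hdc, and between them for Cma1.

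**Figure D3:**
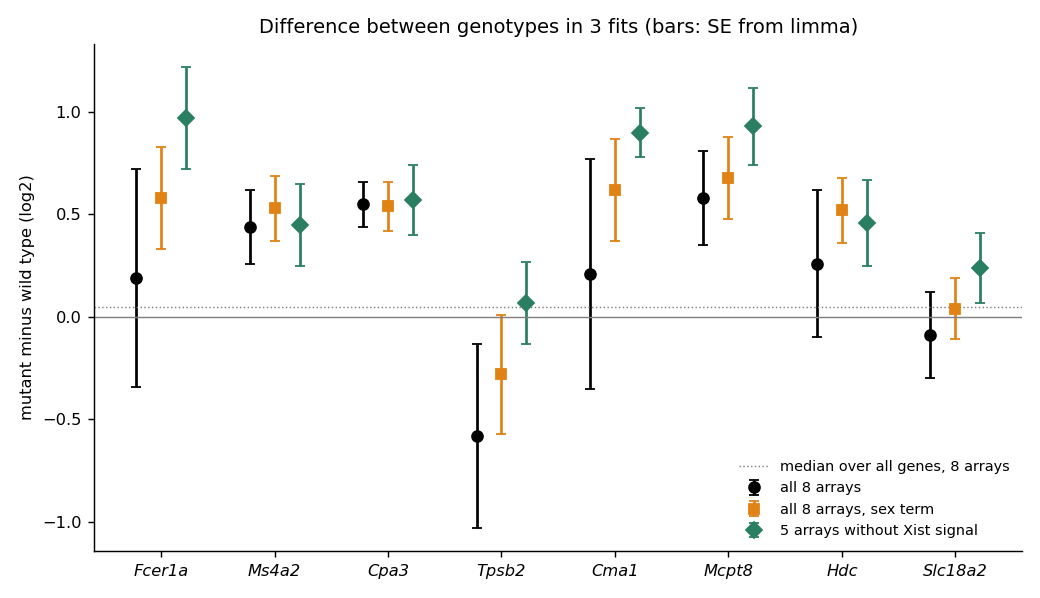
Difference between genotypes (log2, mutant minus wild type, bars show SE) for the 8 genes over all arrays, with a sex term, and over the 5 arrays without Xist signal. Cpa3 keeps about the same value (0.55, 0.54 and 0.57), while Fcer1a moves from 0.19 to 0.58 and 0.97.

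Some members also varied together within genotypes. Over the deviations of the 8 arrays from their genotype means, 12 of the 28 pairs had a Pearson r of at least 0.70 and none of the 12 involved Cpa3. The dim protease genes Cma1 and Tpsb2 had an r of 0.94, Slc18a2 followed Tpsb2 with 0.90 and Cma1 with 0.83, and Fcer1a followed Cma1 with 0.89 and Hdc with 0.81. Ms4a2 was close to Hdc (0.88) but had values from 0.12 to 0.49 with Mcpt8, Tpsb2, Slc18a2, Cma1 and Fcer1a, and Mcpt8 was closest to Fcer1a (0.79). Cpa3 ranged from -0.38 with Fcer1a to 0.30 with Slc18a2. These values describe 8 arrays that share their normalisation and the Xist division, and pairs of other genes were not examined.

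**Figure D4:**
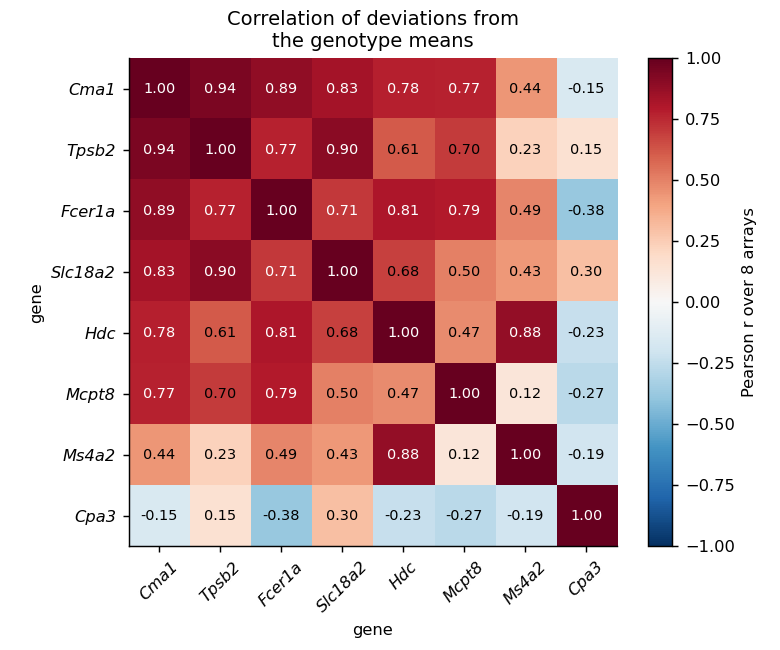
Pearson r between members over the deviations of the 8 arrays from the genotype means (colour and printed value). High values join Cma1 with Tpsb2, Fcer1a, Slc18a2, Hdc and Mcpt8, from 0.94 to 0.77, and the row of Cpa3 stays between -0.38 and 0.30.

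The genes whose levels were most like those of 4 members over the 8 arrays were different for each. They had the 3 highest Pearson r per member out of all non-member genes, over 8 arrays only. Such a choice gives high values even among unrelated genes, and whether these exceed that was not tested. Nearest to Fcer1a was Jpx, an X-linked noncoding RNA that activates Xist (r = 0.965), at 10.53 to 10.67 in the arrays with Xist signal and 9.93 to 10.35 in the others, followed by Rinl (0.957) and Tacr2 (0.956). Nearest to Cpa3 were Fam210b (0.979), Bri3 (0.963) and Slamf8 (0.961), a receptor gene of phagocytes at 5.98 in wild type and 7.03 in mutant cells (limma adjusted p = 0.152). Nearest to Ms4a2 were Mt1 (0.979), a metallothionein gene, Mefv (0.976) and Wnt9b (0.970). Nearest to Mcpt8 were Steap4 (0.989), Unc45a (0.987) and Adssl1 (0.985). Tacr2, Steap4 and Wnt9b, and Slamf8 in wild type cells, were themselves at the level of absent transcripts.

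Beyond the members, 89 of 97 further genes of mast cell and basophil biology were measured, in lists of receptors and signalling, granule proteins, mediators, and transcription factors. None was called by limma over all genes, 14 had an unadjusted limma p under 0.05 and were higher and 2 were lower (11.9% and 5.23% of all genes), and their median difference was 0.05, that of all genes. Genotypes did not overlap for 11 that were higher and 1 that was lower (6.82% and 3.33% of all genes).

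Receptor and signalling genes had 24 of 32 differences above 0 (75%, beside 62.6% of all genes) and a median of 0.03. Lat2, the adaptor NTAL phosphorylated after IgE receptor or Kit engagement, read 11.29, 10.94, 11.04 and 11.26 in wild type and 11.42, 11.92, 11.70 and 11.73 in mutant arrays. Its genotypes did not overlap, and it differed by 0.56 ± 0.12 (SE; limma adjusted p = 0.105). Milr1, the inhibitory receptor allergin-1, differed by 0.38 and the kinase gene Btk by 0.27 without overlap, while Clnk, an adaptor of the Slp76 family, was at -0.40 ± 0.15 (SE; limma adjusted p = 0.24). Among genes that relay the receptor's signal, differences were -0.03 for the kinase gene Syk, 0.02 for Fyn and for the phospholipase gene Plcg2, -0.10 for the adaptor genes Lat and Gab2 and -0.12 for the phosphatase gene Inpp5d.

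Of the granule genes 12 of 18 lay above 0 (66.7%, beside 62.6% of all genes), with a median of 0.14. Mcpt2, a mucosal mast cell protease gene, read 3.74 to 4.04 in wild type and 4.19 to 4.66 in mutant arrays (limma adjusted p = 0.0791), all within the readings of absent transcripts, as were those of Mcpt1. The secretion gene Stxbp2 was at 12.34 ± 0.17 and 12.60 ± 0.07 (SD, n = 4 each) and Rab27a at -0.24. The proteoglycan core gene Srgn, on which proteases are packed, was at 14.45 over all arrays and differed by -0.04.

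Among mediators 14 of 17 lay above 0 (82.4%, beside 62.6% of all genes), with a median of 0.19. Of the 26 genes of other organs, 22 lay above 0 (84.6%), with a median of 0.13. Il4, the cytokine that basophils release early, read 5.64, 5.16, 6.13 and 6.27 in wild type and 6.75, 7.29, 6.96 and 6.63 in mutant arrays. The genotypes did not overlap (limma adjusted p = 0.105), but all wild type values lay within the readings of absent transcripts, so no size is given. Ccl2 read 6.10 to 6.39 and 6.62 to 6.73 (limma adjusted p = 0.0652), close to that level, and Il13 was below it in both genotypes (4.78 and 5.08). Alox5, the first enzyme of leukotriene synthesis, read 7.46, 7.53, 6.77 and 6.85 in wild type and 7.52, 7.56, 8.13 and 7.54 in mutant arrays. It differed by 0.53 ± 0.21 (SE; limma adjusted p = 0.251) over all arrays. With a sex term Alox5 was the 1 gene of these lists called, at 0.70 ± 0.07 (SE; limma adjusted p = 0.0122), and among arrays without Xist signal it was at 0.73 ± 0.09 (SE; limma adjusted p = 0.0748).

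The transcription factors had 10 of 22 differences above 0 (45.5%) and a median of -0.01. Gata2 (13.44 ± 0.08 and 13.34 ± 0.09) and Mitf (11.38 ± 0.13 and 11.33 ± 0.22; SD, n = 4 each), which drive mast cell genes, were level, and Cebpa, needed for the basophil fate, was at -0.26 ± 0.20 (SE; limma adjusted p = 0.514), with 13.79 and 13.64 in wild type arrays 1 and 2 against 12.91 to 13.11 in all others. Id2, which blocks DNA binding by helix-loop-helix partners, read 9.17 to 9.68 and 9.74 to 10.34, a difference of 0.73 ± 0.16 (SE; limma adjusted p = 0.105). Hes1, a Notch target, read 5.98 to 6.30 and 6.53 to 7.08 (limma adjusted p = 0.0929), from the level of absent transcripts. Bhlhe40, a repressor needed for cytokine output of mast cells and basophils, was lower without overlap, at 9.86, 10.02, 9.21 and 9.23 in wild type and 9.12, 8.85, 8.76 and 8.78 in mutant arrays (-0.71 ± 0.19, SE; limma adjusted p = 0.155). Among arrays without Xist signal Bhlhe40 was at -0.31 ± 0.13 (SE). Spi1 differed by 0.24, and Gata1 was at 0.50 ± 0.21 (SE; limma adjusted p = 0.271).

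**Figure D5:**
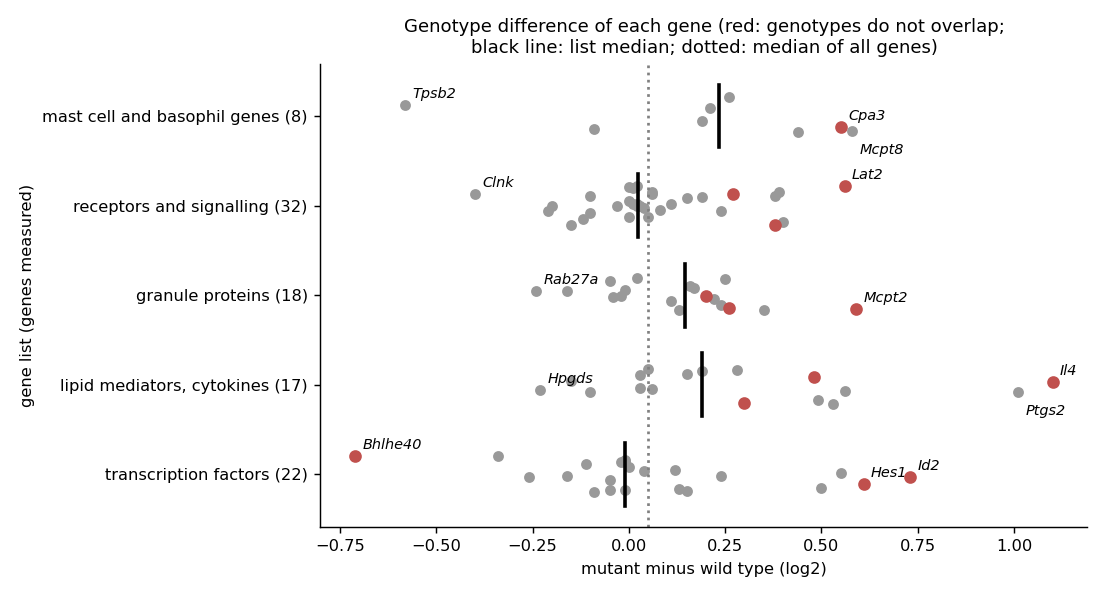
Difference between genotypes (log2, horizontal axis) of every measured gene in the member list and 4 wider lists (rows); red points are genes whose genotypes do not overlap, black lines are list medians and the dotted line is the median of all genes, 0.05. The member median is 0.23, and Id2 and Bhlhe40 lie at 0.73 and -0.71; Il4, the point farthest right among mediators, had wild type values within the readings of absent transcripts, so its place there is not a measured size.

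Markers of other cell types were read on the same arrays. None of their genes was called over all arrays, and their part in the differences of the members was not tested. The mean log2 level of 7 measured eosinophil genes was 6.35 to 7.52 in wild type and 6.83 to 7.61 in mutant arrays, with 6 of 7 above 0. Siglecf, the sialic acid receptor of eosinophils, went from 9.92 ± 0.18 to 10.75 ± 0.27 (SD, n = 4 each) without overlap (limma adjusted p = 0.0679; with a sex term 0.93 ± 0.08, SE, limma adjusted p = 0.00865), while Il5ra was at 5.65 and 6.16, the level of absent transcripts, and the granule gene Prg2 ranged from 6.63 to 10.23 over the arrays. Levels over 12 neutrophil genes were 10.72 to 11.38 in wild type and 11.29 to 12.19 in mutant arrays (11 of 12 above 0, Mmp8 at 1.35; Mmp9 read 5.80 to 6.99 in wild type, about the level of absent transcripts, and 6.57 to 9.41 in mutant arrays), over 15 macrophage and dendritic cell genes 8.57 to 9.02 and 9.03 to 9.55 (14 of 15, H2-Ab1 at 0.50 and Cd68 at 0.44), and over 11 erythroid genes 9.51 to 10.16 and 10.11 to 10.96 (10 of 11, Tfrc at 0.75 and Hbb-b2 at 1.67). They were 8.41 to 8.99 and 8.72 to 9.27 over 10 megakaryocyte genes (10 of 10, Itga2b at 0.46; Clec1b read 5.75 to 6.43 in wild type, within the readings of absent transcripts, and 6.59 to 7.42 in mutant arrays) and 8.40 to 8.59 and 8.36 to 8.65 over 10 lymphoid genes (6 of 10, Cd4 at -0.45; Cd8a, at 5.88 to 6.47 in all arrays, was within the readings of absent transcripts). The 1 macrophage and dendritic cell gene below 0 was Cd14, at -0.99 ± 0.42 (SE; limma adjusted p = 0.273). Beside these counts, 62.6% of all genes and 84.6% of the genes of other organs lay above 0. Of the marker lists, the macrophage and dendritic cell levels alone did not overlap between genotypes, at 9.02 against 9.03 where they came closest. The mean over all 18193 genes did not overlap either, at 8.57 to 8.62 in wild type and 8.64 to 8.66 in mutant arrays. The mean levels of these 6 lists overlapped between the 3 arrays with Xist signal and the 5 others. Single genes did lie higher in all 3, among them the granule protease genes Elane and Prtn3 and the peroxidase gene Mpo (3 of 12 neutrophil genes), and 8 of the 89 further mast cell and basophil genes, beside 1.93% of all genes.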

How the data were processed

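LSK cells of 8 mice were lysed after sorting, and their RNA was amplified linearly, biotinylated and put on Affymetrix mouse arrays, per the labels' protocols. The submitters' processing notes name RMA, affy and R 2.11.0 for the deposited values, which from their range are log2 intensities. Quantile normalisation in RMA hides a shift common to most genes. Genome build and chip definition are not given in the sources used here.

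Probe sets with 1 symbol in the platform annotation (34945 of 45101) gave 18193 genes, each represented by its probe set of highest mean. Genotypes, 4 mice each, were compared with limma 3.58.1 in R 4.3.3 (lmFit, eBayes, two-sided, Benjamini-Hochberg over all genes, threshold 0.05). The members, lists and tests were chosen with earlier results of these data known. Named genes were the members, Jak2, Kit, Gata2, Mitf, Cebpa and Fcer1g, any called gene and the 4 of smallest p in each wider list, the 2 in each marker list and the 3 most correlated with each of 4 members. Further genes (Gata1, Syk, Fyn, Plcg2, Lat, Gab2, Inpp5d, Srgn, Prg2, Cd14, Cd34, Mecom, Slamf1, Elane, Mpo, Prtn3, Apoa1, Krt5, Prm1, Cela1, genes of the chymase locus) were chosen after their values were seen. Ly6a was not matched. Alternatives are given in the closing section. In a simulation of mutant against wild type with 18193 genes, limma recovered 49.3% of changes of 0.5, 86.6% of changes of 1 and 95.5% of changes of 2 (log2), with 5 false calls among 159. Changed genes were drawn at random, and the noise was independent between genes and held no Xist division. These rates are thus not those of the members, among them Fcer1a and Cma1 with wild type SDs of 1.17 and 1.24.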

Additional observations from a re-analysis of the deposited data

Results flagged for a closer look

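In 108 sets of 4 arrays (54 named genes in 2 genotypes), 4 held a value whose gap to its nearest neighbour as a share of the range exceeded Dixon's critical value, which chance exceeds in about 1 set in 20. Mutant array 2 was highest for Cpa3, at 11.68 against 11.17 to 11.25 in the other mutant arrays, and without it the difference was 0.44 (limma adjusted p = 0.0821; 0.0523 to 0.207 over all alternatives). Mutant array 3, the mutant array with Xist signal, was highest for Cma1, at 6.93 against 5.65 to 5.79, and for Alox5, at 8.13 against 7.52 to 7.56. Wild type array 1 was highest among wild type arrays for Ccl2, at 6.39 against 6.10 to 6.13.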

How the results depend on the processing

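The number of genes called, 30 (19 higher, 11 lower), was 8 with the replicate block, 60 with a sex term, 75 with a trended robust prior, 49 after averaging probe sets, 8 at an adjusted p under 0.01, 199 at 0.1 and 13 to 40 when an array was left out (13 without wild type array 2, 16 without 3, 19 without mutant array 1, 16 without 2, 14 without 4). Median centring gave 40, split into 21 higher and 19 lower. Deviations from the genotype means were little alike between same-numbered arrays (r -0.02, -0.22, -0.06 and 0.10). Arrays numbered 1, 2 and 3 differed in Xist signal between genotypes, so these r cannot exclude a pairing of the mice. The block changed no call of a member. Members called were 0 in 18 of 19 alternatives and 1, Cpa3, at 0.1. The median difference of the members, 0.23, turned to -0.02 (wild type array 4 left out) and -0.03 (mutant array 3 left out), and ranged from -0.03 to 0.51 when an array was left out. Differences above 0 for Cpa3, Mcpt8 and Ms4a2 kept their direction in all 17 alternatives run on them. Slc18a2 turned to 0.04 with a sex term and to 0.24 among arrays without Xist signal (added after seeing the data), where Tpsb2 was 0.07; leaving out _s_at, _x_at and _a_at probe sets gave 0.11 for Tpsb2. When an array was left out, Fcer1a ranged from -0.22 to 0.54, Cma1 from -0.17 to 0.72, Hdc from -0.02 to 0.48, Tpsb2 from -0.85 to -0.13 and Slc18a2 from -0.27 to 0.04. The cause of these changes was not tested. With 4 arrays a genotype and Cma1 and Tpsb2 near background, differences of these genes could not be measured closely.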
